A study of Xenopus laevis with 72 samples.

Results

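Retinoic acid (RA) is made from vitamin A in 2 oxidation steps, and the comparison described here asks what a partial block of the second step did to the RA network and to RA-responsive hox genes at the moment the block was lifted. Whole wild-type Xenopus laevis embryos were kept for 2 h, from late blastula (stage 9.5) to early gastrula (stage 10.25), in 50 uM 4-diethylaminobenzaldehyde (DEAB) or without exposure (control), then washed and collected at 0 h. The comparison uses 12 of the 72 samples of the series, 6 DEAB and 6 control, chosen by treatment and time alone and paired by clutch. The other 60 samples are a 10 nM RA pulse and the later times, 1.5, 3 and 4.5 h after the wash. A clutch is the eggs of a single female from 1 fertilization, divided over all treatments and times, and the 6 clutches are named G to L. Each sample pooled 5 to 10 embryos, so the replicate is the clutch and not the embryo. DEAB was dissolved in DMSO, and whether controls received DMSO is not given in the sources used here.

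In the RA pathway, retinol dehydrogenases turn retinol into retinaldehyde, and retinaldehyde dehydrogenases, the enzymes that DEAB inhibits, oxidize retinaldehyde to RA. Retinaldehyde reductases and the CYP26 enzymes work against this supply, and CRABP proteins carry RA inside the cell. RA then binds nuclear receptors, and the 3' hox genes, which give cells their position along the head-to-tail axis, are among the best known targets. X. laevis is allotetraploid, so many genes exist as an L and an S copy (homoeologs).

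The panel held 23 target genes and gapdh, read by quantitative PCR. A level is given as log2 relative expression: the threshold cycle (Ct) of gapdh minus that of the gene, centred on the median of that gene over the 72 samples, so that 0 is the gene's own median and levels of different genes cannot be compared. A log2 difference of 1 is a doubling if each PCR cycle doubles the product. Of the target genes, 22 were measured in all 12 samples and hoxd3.L in 5. Ct values in the 12 samples lay between 11.29 and 27.41, where a higher Ct means less transcript. The samples are whole embryos and the panel has no markers of single cell types, so fewer cells of a type and less RNA per cell cannot be told apart.

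The reference gene overlapped between the groups. The gapdh Ct lay between 11.29 and 13.04 with a median of 12.46 in DEAB embryos, against 11.41 to 13.20 with a median of 12.62 in controls. The paired difference was -0.155 ± 0.459 cycles (SD, n = 6), lower under DEAB in 3 of 6 clutches (p = 0.4375 by an exact permutation test that flips signs, two-sided, where 0.03125 is the smallest p possible).

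The DEAB sample of clutch K stood apart from the rest. It lay farthest from the fitted values of all 72 samples, with a root mean square residual of 1.74 on the log2 scale, ahead of the DEAB sample of clutch H at 0 h (1.41). Between 0 h and 1.5 h the median change of the 22 genes was -0.58 in the DEAB series of clutch K, with 9 genes higher at 1.5 h, whereas in the other 17 series of a clutch and a treatment it lay between 0.16 and 2.775, with 13 to 22 genes higher.

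**Figure D1:**
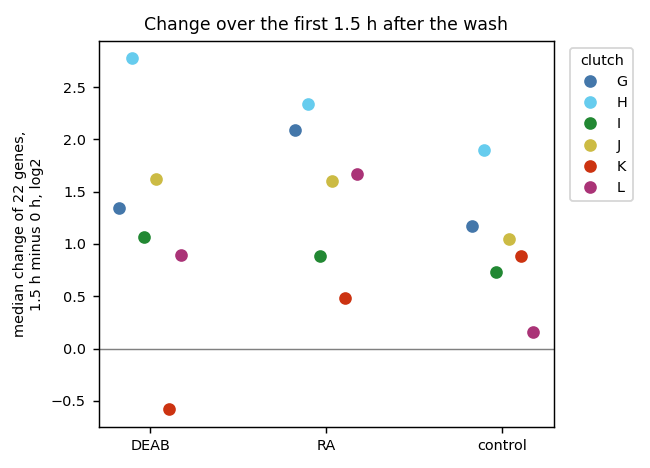
Median change of 22 genes over the first 1.5 h after the wash (y axis, log2, 1.5 h minus 0 h) in each treatment (x axis); each point is a clutch, coloured by its letter. The DEAB series of clutch K, at -0.58, is below 0, and the other 17 points lie between 0.16 and 2.775.

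In that sample hoxb1.S, a hindbrain hox gene, stood at -1.29 at 0 h and -3.91 at 1.5 h, while the clutch K control stood at -3.04 at 0 h and -2.04 at 1.5 h. Other genes of the same sample kept the usual order of times: crabp2.L was at -4.755 at 0 h and -1.465 at 1.5 h under DEAB, and at -3.165 and -0.605 in the control. The sample was kept with its label, no cause was tested, and the results are given with and without it. Leaving out this sample alone keeps the clutch K control in the fit without its pair.

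With all samples, no gene passed the test between DEAB and control embryos at the wash. With limma and Benjamini-Hochberg adjustment over the panel, 0 of 23 genes were called at an adjusted p under 0.05, which is 0% of those tested. At an unadjusted p under 0.05 there were 2, or 8.7%, namely the hox gene hoxd4.L and the RA-producing enzyme gene aldh1a2.L. The limma fit of the 12 samples alone also had 2, hoxd4.L (unadjusted p = 0.040) and the RA-binding protein gene crabp2.S (0.025). There aldh1a2.L had an unadjusted p of 0.133. A limma fit with a block for each clutch at each time had 4 of 22 genes at an unadjusted p under 0.05. These were hoxd4.L, crabp2.S, aldh1a2.L and cyp26c1.L, with a smallest limma adjusted p of 0.085. The exact sign-flip test over the clutches called 0 of 22 genes (0 with an unadjusted p under 0.05). Its smallest possible p with 6 clutches is 0.03125, reached only when all 6 differences share a sign. After adjustment over 22 genes that p cannot call a gene on its own, so this 0 was nearly fixed in advance. The levels of DEAB and control samples overlapped for all 23 genes. The measured differences were 10 higher and 12 lower under DEAB among the 22 complete genes, with a median of -0.06. The 95% interval lay between -1 and 1 for 10 of the 22, so for the other 12 a doubling or a halving was not excluded in at least 1 direction. Without the clutch K DEAB sample, an alternative added after the data were seen, limma called 1 of 23 genes (4.35%), hoxd4.L. With the whole of clutch K left out, limma called 0 of 23 (smallest adjusted p 0.163).

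**Figure D2:**
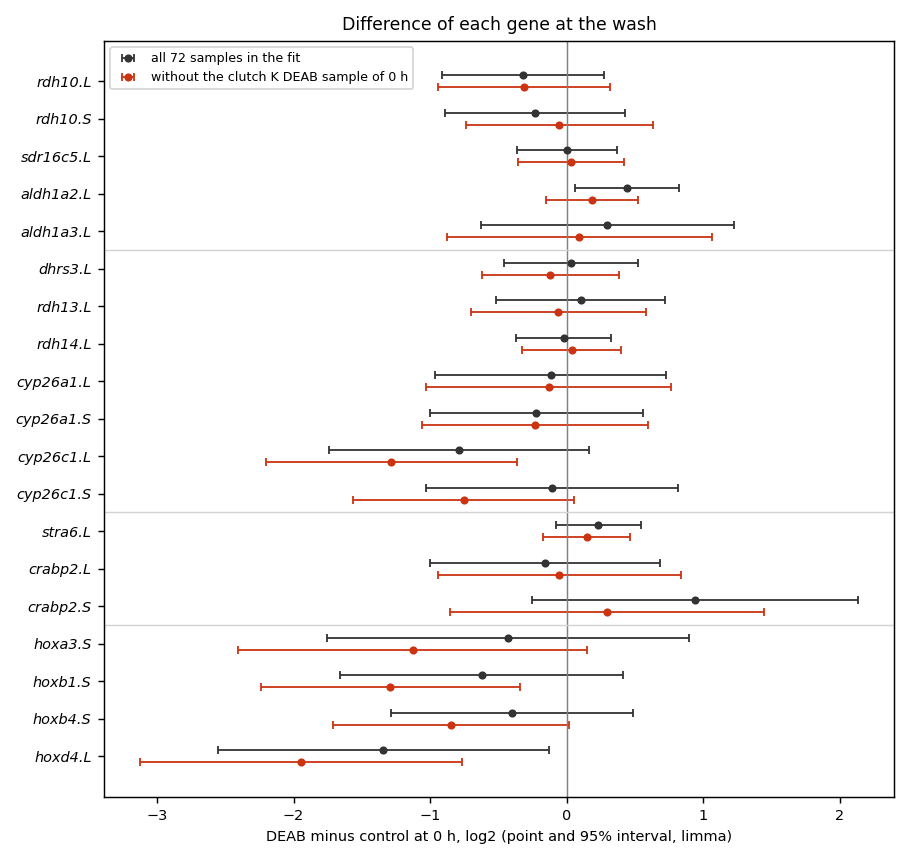
DEAB minus control at 0 h on the log2 scale (x axis) for 19 genes (y axis), with 95% intervals from limma; black uses all 72 samples and red leaves out the clutch K DEAB sample of 0 h. With all samples, the intervals of aldh1a2.L (0.06 to 0.82) and hoxd4.L (-2.55 to -0.13) lie off 0, and without that sample hoxd4.L moves to -1.94. The aldh1a2.L interval from the 12 samples alone, not drawn, was -0.17 to 1.05.

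Among the hox targets the median difference was more negative than over the panel, at -0.42 against -0.06 over all 22 genes. None of the 6 genes passed the test. By sign, 4 had a lower mean under DEAB and 2 a higher mean, a split near that of the panel, where 12 of 22 were lower. Without clutch K the hox median was -0.74, against -0.06 over all 22 genes without that clutch. There 5 hox genes were lower and 1 higher, beside 13 lower and 9 higher in the panel. In clutch K all 6 stood higher in the DEAB sample, while in clutches I and J none did.

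The largest difference was that of hoxd4.L (gene ID 100380950), a gene of paralog group 4, which is active in the posterior hindbrain and spinal cord of vertebrates. Its levels in DEAB embryos ran from -7.215 in clutch H through a median of -3.43 to -1.165 in clutch K, against -3.675 in clutch H through a median of -2.055 to -1.595 in clutch L in controls. The DEAB samples of clutches G, H and L lay below all 6 controls, those of I and J lay within the control range, and that of K lay above it. The clutch differences were -1.72 in G, -3.54 in H, -0.25 in I, -1.05 in J, 0.83 in K and -2.33 in L. The mean difference was -1.34 (SE 0.60, 95% interval -2.55 to -0.13, limma adjusted p = 0.348, lower in 5 of 6 clutches), a ratio of 0.39 (0.17 to 0.91). Without the clutch K DEAB sample hoxd4.L fell by 1.94 on the log2 scale (SE 0.59, interval -3.12 to -0.76, limma adjusted p = 0.0385). Without the whole of clutch K the difference was -1.78 with an adjusted p of 0.163 by limma, and without clutch H it was -0.90. hoxd4.L was detected late, at a mean Ct of 23.9 in DEAB and 22.7 in control embryos.

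The hindbrain gene hoxb1.S (gene ID 108702519) had levels between -5.68 and -1.29 with a median of -3.92 in DEAB embryos, against -4.41 to -2.46 with a median of -2.91 in controls. It was also detected late, at a mean Ct of 22.48 in DEAB and 22.01 in control embryos. Its clutch differences were -1.38 in G, -0.54 in H, -1.42 in I, -0.97 in J, 1.75 in K and -1.18 in L, so DEAB was lower in each clutch but K. The mean was -0.62 (SE 0.52, interval -1.66 to 0.42, limma adjusted p = 0.858), and without the clutch K DEAB sample it was -1.29 (interval -2.24 to -0.35, limma adjusted p = 0.0639). With the whole of clutch K left out it was -1.10 (limma adjusted p = 0.213).

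The levels of hoxb4.S (gene ID 734796) differed more between clutches than between treatments. They ran from -4.475 to -0.905 in DEAB embryos and from -3.995 to -0.785 in controls, with clutches H and L lowest in both groups. Its differences were -0.99 in G, -0.48 in H, -0.73 in I, -0.72 in J, 1.11 in K and -0.58 in L. Over the 5 clutches other than K they averaged -0.70 ± 0.19 (SD), the narrowest spread among the hox targets named here. The mean over all 6 was -0.40 (SE 0.44, interval -1.29 to 0.49, limma adjusted p = 0.924), and without the clutch K DEAB sample it was -0.85 (interval -1.71 to 0.01, limma adjusted p = 0.308). With the whole of clutch K left out, the limma adjusted p was 0.543.

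For hoxa3.S (gene ID 379985) the clutches disagreed in sign. DEAB levels lay between -3.45 and 0.14 with a median of -2.62, against -3.06 to -0.91 with a median of -1.20 in controls. Detection was late, at a mean Ct of 23.10 in DEAB and 22.82 in control embryos. The differences were -1.61 in G and -2.54 in J, lay between -0.22 and 0.38 in H, I and L, and were 1.29 in K. The mean was -0.43 (SE 0.66, interval -1.76 to 0.89, limma adjusted p = 0.924). Without the clutch K DEAB sample it was -1.13 (interval -2.41 to 0.15, limma adjusted p = 0.315), and without clutch J it was -0.01. Leaving out the whole of clutch K gave -0.78 (limma adjusted p = 0.825). The remaining 2 complete hox targets differed by 0.20 and 0.40, each higher under DEAB in 3 of 6 clutches.

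hoxd3.L (gene ID 100036911), from the same cluster as hoxd4.L, could be read in 3 DEAB samples, at -1.76 in I, -1.77 in K and -3.65 in L, and in 2 controls, at -2.26 in I and -4.16 in J. Clutch I alone had both values, with a difference of 0.50. The fit over all samples gave 1.26 (SE 1.20, interval -1.16 to 3.68, limma adjusted p = 0.858), which leaves the direction undetermined. That fit includes a value of 9.45 in the RA embryos of clutch K at 0 h. The other hoxd3.L values of clutch K lay between -2.30 and 2.02. Over the other settings tried, the estimate lay between 0.18 and 2.12. The deposited symbol and gene ID are those of hoxd3.L, whereas the paper's primer list names hoxd3.S, and which copy was read was not tested.

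**Figure D3:**
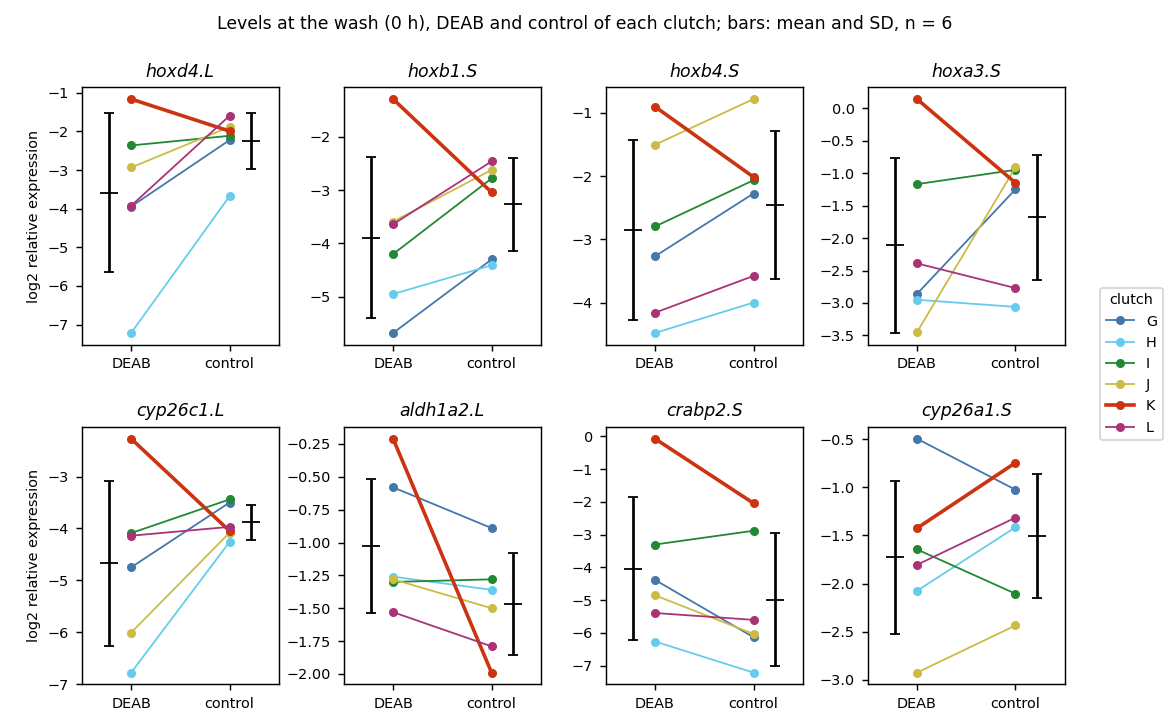
Log2 relative expression (y axes, each with its own range) of 8 genes at 0 h, DEAB left and control right; lines join the samples of a clutch, clutch K is the thick red line, and black bars are the mean and SD (n = 6). In hoxd4.L, hoxb1.S, hoxb4.S and cyp26c1.L the line of clutch K runs against the other 5 lines.

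The genes that supply RA showed small differences. Of 5 genes, 3 had a higher and 2 a lower mean under DEAB, none passed the test, and the median was 0.00. aldh1a2.L (gene ID 399389), the main retinaldehyde dehydrogenase of the gastrula and a target of DEAB as an enzyme, had levels between -1.53 and -0.21 with a median of -1.27 in DEAB embryos, against -1.99 to -0.89 with a median of -1.43 in controls. The differences were 0.31 in G, 0.10 in H, -0.02 in I, 0.22 in J, 1.78 in K and 0.26 in L. The mean was 0.44 (SE 0.19, interval 0.06 to 0.82, limma adjusted p = 0.348, higher in 5 of 6 clutches), a ratio of 1.36 (1.04 to 1.77). Most of that mean came from clutch K, and without its DEAB sample the difference was 0.18 (interval -0.15 to 0.52, limma adjusted p = 0.905). The SE of 0.19 uses the spread over all 72 samples. A limma fit of the 12 samples alone gave an SE of 0.26 and an interval of -0.17 to 1.05.

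aldh1a3.L, a second retinaldehyde dehydrogenase gene, was detected late (mean Ct 22.96 in DEAB and 23.41 in control embryos) and had no common direction, with a difference of 2.33 in clutch G, -1.04 in clutch J and a mean of 0.30, or 0.09 without the clutch K DEAB sample. rdh10.L, whose product oxidizes retinol in the first step, differed by -0.32 and was lower under DEAB in 5 of 6 clutches, and its homoeolog rdh10.S differed by -0.23 and was lower in 3. sdr16c5.L, another retinol dehydrogenase gene, was the steadiest of the group: its 6 differences lay between -0.22 and 0.28 and their mean was 0.00 (interval of the ratio 0.78 to 1.29).

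Of the 7 genes of retinaldehyde reduction and RA degradation, 5 had a lower and 2 a higher mean under DEAB, none passed the test, and the median was -0.11. The CYP26 enzymes hydroxylate RA for removal, and cyp26a1 is a direct RA target in vertebrate embryos. cyp26a1.L (gene ID 496314) lay between -3.815 and -1.645 with a median of -2.71 in DEAB embryos, against -3.385 to -1.865 with a median of -2.67 in controls. Its difference was -0.12 (SE 0.42, interval -0.96 to 0.73, limma adjusted p = 0.986), with 3 clutches higher and 3 lower. cyp26a1.S (gene ID 398094) lay between -2.925 and -0.495 with a median of -1.73 in DEAB embryos, against -2.435 to -0.745 with a median of -1.37 in controls. It differed by -0.22 (SE 0.39, interval -1.001 to 0.56, limma adjusted p = 0.938), lower under DEAB in 4 of 6 clutches, so a fall to 0.50 of the control level or a rise to 1.47 of it lie inside the interval.

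The largest difference of this group was that of cyp26c1.L (gene ID 108696124), from -6.78 to -2.27 with a median of -4.445 in DEAB embryos, against -4.26 to -3.44 with a median of -4.01 in controls. The 6 controls lay close together (SD 0.33), and the DEAB samples spread widely (SD 1.59), with G, H and J below all controls, K above them and I and L among them. The differences were -1.25 in G, -2.52 in H, -0.65 in I, -1.93 in J, 1.78 in K and -0.17 in L. Their mean was -0.79 (SE 0.48, interval -1.74 to 0.16, limma adjusted p = 0.649, lower in 5 of 6 clutches), and without the clutch K DEAB sample it was -1.29 (interval -2.20 to -0.37, limma adjusted p = 0.0639). Leaving out the whole of clutch K gave -1.30 with a limma adjusted p of 0.163. With all clutches, the interval was -1.51 to -0.07 with a block for each clutch at each time (limma adjusted p = 0.179). It was -2.03 to 0.45 in the fit of the 12 samples alone (limma adjusted p = 0.573).

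The homoeolog cyp26c1.S had a difference of 2.86 in clutch K and -2.29 in clutch I, and a mean of -0.11. Without the clutch K DEAB sample the difference was -0.75 (interval -1.56 to 0.05, limma adjusted p = 0.308), and without clutch I it was 0.33. Leaving out the whole of clutch K gave -0.70 (limma adjusted p = 0.543). In the DEAB sample of clutch K its level was -0.13, while the other 5 DEAB samples lay between -4.26 and -3.03 and the controls between -3.51 and -1.97. dhrs3.L (gene ID 444269), a retinaldehyde reductase gene, had a mean of 0.03 (SE 0.24, interval -0.46 to 0.52, limma adjusted p = 0.986), with levels from -4.125 to -2.285 in DEAB embryos and from -3.995 to -2.685 in controls. Its difference was -0.12 without the clutch K DEAB sample. rdh13.L and rdh14.L, of the same family of short-chain dehydrogenases, differed by 0.10 and -0.02. For rdh14.L the 6 clutch differences lay between -0.25 and 0.18.

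Of the 4 genes of retinoid uptake and binding, 3 had a higher and 1 a lower mean under DEAB, none passed the test, and the median was 0.12. crabp2.S (gene ID 108700362), an RA-binding protein gene, spread more over clutches than any difference between treatments. It was detected late in controls, at a mean Ct of 22.43, against 21.34 in DEAB embryos. Its levels ran from -6.265 in clutch H to -0.075 in clutch K in DEAB embryos and from -7.215 in clutch H to -2.045 in clutch K in controls. The differences were 1.75 in G, 0.95 in H, -0.42 in I, 1.18 in J, 1.97 in K and 0.21 in L. The mean was 0.94 (SE 0.60, interval -0.26 to 2.14, limma adjusted p = 0.649, higher in 5 of 6 clutches), and without the clutch K DEAB sample it was 0.30 (limma adjusted p = 0.905). That fit keeps the clutch K control, the highest of the controls. With both clutch K samples and the rest of that clutch left out, the difference was 0.73 (limma adjusted p = 0.706). With all clutches, the crabp2.S interval was 0.26 to 1.62 with a block for each clutch at each time (limma adjusted p = 0.085). It was 0.15 to 1.73 in the fit of the 12 samples alone (limma adjusted p = 0.439). stra6.L, the gene of a membrane receptor for retinol uptake, was higher under DEAB in 5 of 6 clutches, by 0.23 on average (ratio 1.17, interval 0.95 to 1.46).

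The L and S copies were compared through the L minus S difference in each sample, in which gapdh cancels. By the paper's methods the copies were preamplified in separate primer pools and in a joint pool. What that did to L minus S was not tested. Limma called 0 of the 5 pairs (0%). The crabp2 copies parted most, since crabp2.L differed by -0.16 where crabp2.S differed by 0.94. The pair's shift was lower in 5 of 6 clutches, with -3.56 in clutch K and -1.81 in clutch H the widest, and it averaged -1.10 (interval -2.31 to 0.10, limma adjusted p = 0.317 over the 5 pairs). The shift was -0.35 without the clutch K DEAB sample (interval -1.47 to 0.77, limma adjusted p = 0.892), in a fit that keeps the clutch K control. In the remaining clutches the paired shift was -0.60 in G, -0.04 in I, -1.25 in J and 0.65 in L. The cyp26c1 pair shifted by -0.68 (interval -1.57 to 0.20, limma adjusted p = 0.317), with clutches I and L opposite to the other 4, and without the clutch K DEAB sample by -0.53 (limma adjusted p = 0.892). The cyp26a1 and rdh10 pairs shifted by 0.11 and -0.09.

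The clutches differed in the direction of the whole panel relative to gapdh. The number of the 22 genes higher under DEAB was 17 in G, 7 in H, 6 in I, 5 in J, 14 in K and 12 in L. The median difference was 0.83 in K and lay between -0.455 and 0.225 in the other 5 clutches. The gapdh Ct difference of a clutch enters all of its gene differences. It was 0.1 in G, -0.66 in H, 0.2 in I, -0.12 in J, -0.77 in K and 0.32 in L. In H and L it had the sign of the panel median (-0.455 and 0.085) and was larger in size, so the sign of those medians rests on gapdh. Differences over 1 in size numbered 11 in K, 7 in G, 5 in J, 3 in I, 2 in H and 2 in L. Clutch K held the highest of the 6 differences for 13 genes and the lowest for 6. No gene had the same sign in all 6 clutches, 8 of 22 had the same sign in 5 of 6, and 4 of 22 had the same sign in the 5 clutches other than K: hoxb1.S, hoxb4.S, hoxd4.L and cyp26c1.L, all lower under DEAB.

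**Figure D4:**
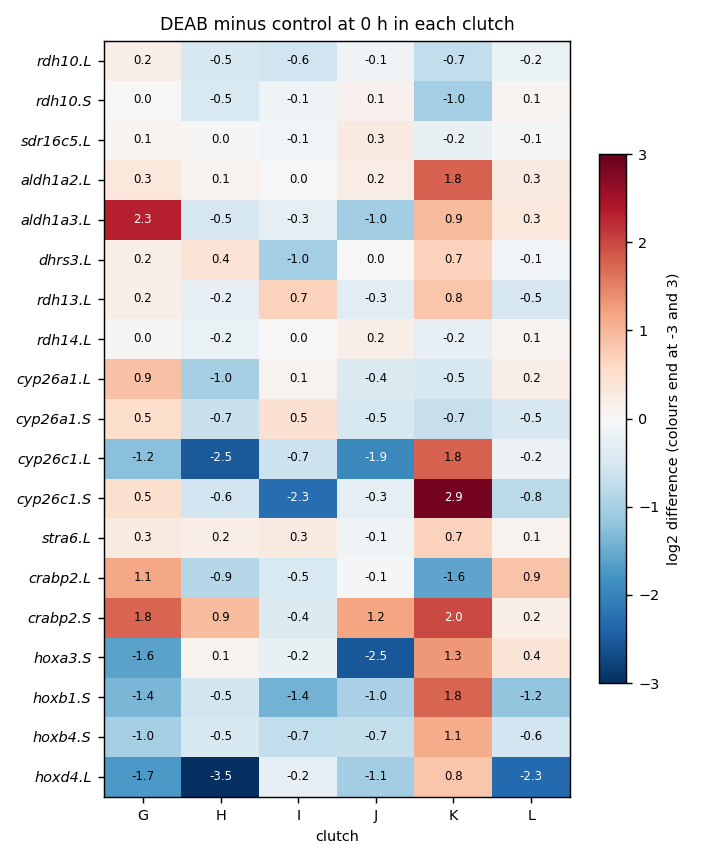
DEAB minus control at 0 h for 19 genes (rows) in each clutch (columns), as log2 differences printed in the cells; red is higher and blue lower under DEAB, with colours ending at -3 and 3. Clutch K, from 2.86 for cyp26c1.S to -1.59 for crabp2.L, is red for hoxb1.S, hoxb4.S and hoxd4.L, which are blue in the other 5 clutches.

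In clutch G, positive panel-wide differences stood beside negative hox differences. There 17 of 22 genes were higher under DEAB, with aldh1a3.L at 2.33, crabp2.S at 1.75 and crabp2.L at 1.15, while hoxd4.L, hoxa3.S, hoxb1.S and cyp26c1.L lay between -1.72 and -1.25. Clutch L showed hoxd4.L at -2.33 and hoxb1.S at -1.18 against a panel median of 0.085.

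The same contrast after the wash used other samples of the same clutches. Limma called 0 of 23 genes at 1.5, 3 and 4.5 h, with 0 at an unadjusted p under 0.05 at each of these times. The difference of hoxd4.L was -1.34 at 0 h and 0.15, 0.04 and 0.02 at 1.5, 3 and 4.5 h (SE 0.60 each). That of hoxb1.S was -0.62 at 0 h and 0.02, -0.15 and -0.06 at the later times (SE 0.52 each), and that of cyp26c1.L was -0.79 at 0 h and -0.07, -0.06 and 0.19 (SE 0.48 each). hoxa3.S kept a negative difference, -0.43 at 0 h and -0.71, -0.31 and -0.08 later (SE 0.66 each).

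Whether the 0 h difference departed from the mean of the 3 later ones was tested in the same limma fit, and 0 of 23 genes (0%) were called, with 1 at an unadjusted p under 0.05. That gene was hoxd4.L, at -1.41 (interval -2.81 to -0.02, limma adjusted p = 0.674). Without the clutch K DEAB sample it was -2.01 (interval -3.36 to -0.67, limma adjusted p = 0.0925). With the whole of clutch K left out, the smallest limma adjusted p of any gene was 0.225. The spread between clutches at 0 h was of the same order as later: the median SD of the clutch differences was 0.71 at 0 h and 0.58, 0.55 and 0.68 at 1.5, 3 and 4.5 h, and without clutch K it was 0.52 at 0 h and 0.45, 0.57 and 0.68 later.

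**Figure D5:**
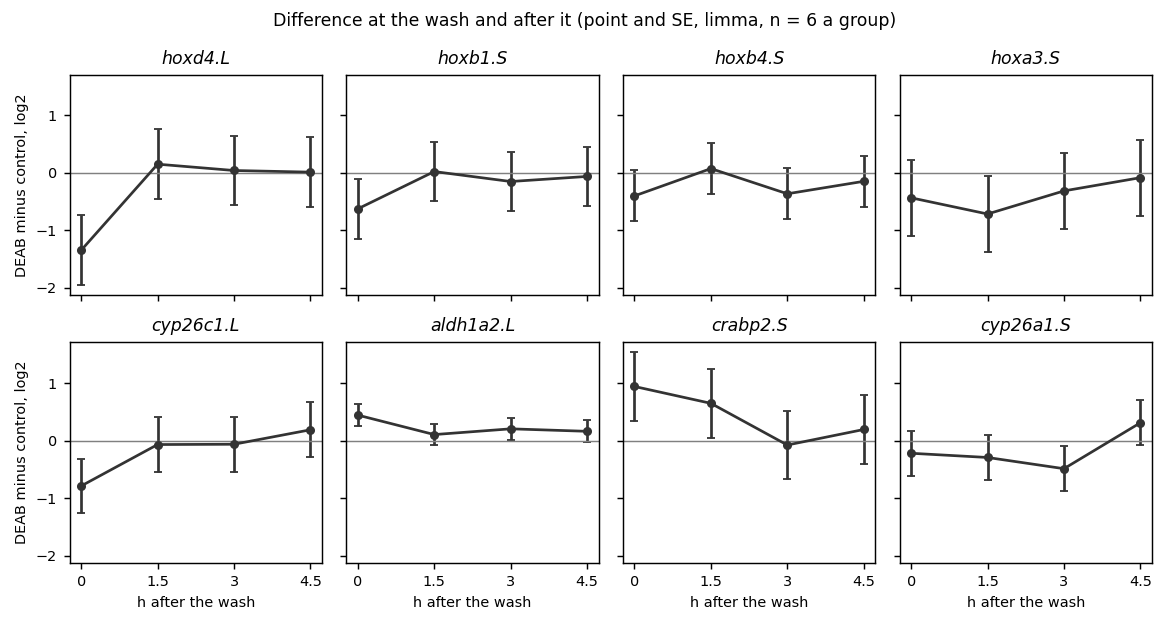
DEAB minus control on the log2 scale (y axes, point and SE from limma, n = 6 a group) at 0, 1.5, 3 and 4.5 h after the wash (x axes) for 8 genes. hoxd4.L stands at -1.34 at 0 h and between 0.02 and 0.15 at the 3 later times.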

How the data were processed

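Total RNA of whole embryos was reverse transcribed, preamplified with pooled primers and read on BioMark microfluidic arrays with EvaGreen dye by the authors, who took the median over 3 preamplification runs. The runs used primers for the L copies, for the S copies and for all 24 genes. The authors deposited Ct values and log2 relative expression. All 1637 deposited log2 values equalled gapdh Ct minus gene Ct, centred on the gene's median, within 0.001. The deposited Ct table was used for gapdh and for other references. Counting depth does not apply to qPCR. hoxd3.L lacked 19 values, 7 of them in the 12 samples, and was fitted on the rest. All 24 gene IDs matched RefSeq gene names, where the ID given for gapdh is the S copy.

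The log2 values were fitted with limma 3.58.1 (R 4.3.3) over 72 samples in 12 groups with clutch as a fixed block, as 1 female gave all samples of a clutch. DEAB and control samples of a clutch deviated together from their group means (r across 22 genes from 0.52 to 0.79). Benjamini-Hochberg adjustment ran over 23 genes. gapdh and single genes were also tested by exact two-sided sign-flip over 64 sign assignments. The fits were also run on simulated data with independent normal noise and no outlying sample. Recovery was required there only at a shift larger than any mean difference reported here. That check therefore does not show whether differences of the size seen here would be called. Full statistics are given for the 8 genes with the largest differences and for aldh1a2.L, dhrs3.L, cyp26a1.L, cyp26a1.S and hoxb4.S, and lists are described by counts and medians. The genes and lists were chosen with earlier results of these data known. A few genes entered all fits and counts but are not reported singly here.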

Additional observations from a re-analysis of the deposited data

Results flagged for a closer look

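In groups of 6 samples, 6 of 60 sets of levels or clutch differences held a sample far from the other 5 by Dixon's gap at 95%. Chance alone would give about 1 in 20 if the sets were independent. They are not, since each difference is built from levels that are also sets, and the target genes of a sample share its gapdh value. The share flagged can therefore not be set against that rate. In 4 of the 6 flagged sets clutch K under DEAB was the high sample: the aldh1a2.L difference of 1.78 (the nearest was 0.31), the hoxb1.S difference of 1.75 (nearest -0.54), the hoxb4.S difference of 1.11 (nearest -0.48) and the cyp26c1.S level of -0.13 (nearest -3.03). The rdh13.L level of clutch G under DEAB was 3.005 (nearest 1.535), and the clutch G control, at 2.805, was also the highest of its group. The hoxd4.L level of clutch H in controls was -3.675 (nearest -2.225), and the clutch H DEAB sample, at -7.215, was also the lowest of its group.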

How the results depend on the processing

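The count of genes called was 0 with all samples and 0 under each of these settings: no replicate block (0 genes), a random replicate block, clutch by time as block, the 12 samples alone, 3 other references, robust moderation, genes with mean Ct above 22 or hoxd3.L left out, adjustment over 4 contrasts, the exact test, and each clutch left out in turn (0 to 0). The Ct limit left 18 genes and took out hoxd4.L, hoxb1.S, hoxa3.S, aldh1a3.L and hoxd3.L, so that setting says nothing of these genes. The exact test cannot call a gene on its own with so few clutches, so its 0 adds nothing to the others. Leaving out only the clutch K DEAB sample, chosen after seeing the data, gave 1 gene, hoxd4.L, and the cause was not tested. The smallest limma adjusted p otherwise was 0.063, for aldh1a2.L with the panel mean as reference. The replicate block changed no call, for the later-time contrast or the L and S pairs either (0 each, 0 to 0 without single clutches). The gapdh difference lay between -0.25 and -0.032 without single clutches. Of 352 values of 20 genes, 24 changed sign, in 8 genes, with no call on either side, so dhrs3.L, rdh13.L, rdh14.L, sdr16c5.L, cyp26a1.L, cyp26c1.S, crabp2.L and aldh1a3.L have no stable sign.

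The reference moved the split of 10 higher and 12 lower genes: it was 13 and 9 with no reference gene (all genes shifted by 0.155), 11 and 11 with the panel mean, and 7 and 15 with gapdh, sdr16c5.L and stra6.L jointly. The hox median stayed negative, from -0.49 to -0.26, while the medians of RA supply and of reduction and degradation changed sign. Each reference shifts the differences of all 22 genes by the same amount. These signs therefore follow from the size of each median and are no separate check of it. With 6 clutches a group, the median half-width of the 95% interval was 0.84.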
